A study of Danio rerio with 6 samples.

Results

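The genes described here encode the proteins of the mitochondrial ribosome. They were taken from the gene table by symbol, as every row whose symbol began with mrpl or mrps, in lower case, followed by a digit. This gave 73 of the 31701 genes in the table, 45 named for the large subunit (mrpl) and 28 named for the small subunit (mrps). All 73 had enough reads to be tested, among 15686 genes tested. Expression was measured by poly(A) RNA sequencing of regenerating heart tissue from adult zebrafish of the AB strain, namely the ventricular apex 7 days after its resection (7 dpa). The tbx20-overexpressing fish carried the cmlc2:TetON-3G driver, in which the cardiomyocyte-specific cmlc2 promoter drives the doxycycline-dependent activator, together with the TRE3G:tbx20 responder. Control fish had the TRE3G:tbx20 responder without a driver. The transgenes also carried fluorescent lens markers, and both groups were given doxycycline daily from the day before surgery until collection. Each group had 3 replicates of pooled tissue, from 6, 8 and 8 hearts in replicates 1, 2 and 3. Doxycycline was given to both groups, so the groups differed in the driver transgene as well as in tbx20 induction.

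Mitochondria keep a small genome and their own ribosomes. These ribosomes translate only the messages of that genome, all of which encode subunits of the oxidative phosphorylation complexes, so in a muscle that depends on respiration, such as the heart, the mitochondrial ribosome is needed to build the respiratory chain. Its RNAs are made inside the organelle, while its proteins are encoded in the nucleus, made in the cytosol and imported. The small subunit reads the message and the large subunit holds the site where the peptide bond is made. Some of the proteins have counterparts in bacterial ribosomes, while others are found only in mitochondria. In humans, mutations in several of these genes, MRPL3 and MRPL44 among them, cause cardiomyopathy in childhood.

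Total counts were between 12993988 and 14002211 in the 3 tbx20-overexpressing libraries, against 13218054 to 17754483 in the 3 control libraries. The transgene's own gene, tbx20, was measured at 133, 19.1 and 37.2 normalised CPM (counts scaled to the size of the library) in tbx20-overexpressing replicates 1, 2 and 3, against 41.3, 8.59 and 20.3 CPM in control replicates 1, 2 and 3. It was thus higher in 3 of 3 replicate pairs, although the groups overlapped. The smallest count of any mitochondrial ribosomal protein gene in a library was 79 and the largest 1844. Together these genes took 0.184%, 0.171% and 0.151% of all counts in tbx20-overexpressing libraries, against 0.189%, 0.221% and 0.203% in control libraries. Every tbx20-overexpressing share lay below every control share. The pooled samples hold several cell types, and fewer cells of a type and less RNA per cell cannot be told apart in them.

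The genes of both subunits were expressed at moderate levels that differed widely within each subunit. On the length-scaled FPKM values (counts scaled to exonic length and to the total of the library), the mean level over the 6 libraries had a median of 24.7 over the large subunit genes and of 19.1 over the small subunit genes. In the large subunit it ranged from 3.84 for mrpl51 to 64.3 for mrpl28, and in the small subunit from 5.52 for mrps25 to 73.2 for mrps34. The summed FPKM of the large subunit genes was 1.91, 1.78 and 1.83 times that of the small subunit genes in tbx20-overexpressing libraries, against 1.78, 1.77 and 1.81 times in control libraries, and these ranges overlapped. Summed FPKM of the large subunit was 1117, 993 and 893 in tbx20-overexpressing libraries, against 1104, 1303 and 1202 in control libraries, and tbx20-overexpressing replicate 1 lay just above control replicate 1. For the small subunit the sums were 587, 557 and 489 in tbx20-overexpressing libraries, against 621, 735 and 663 in control libraries, without overlap.

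To ask how the mitochondrial ribosome responded to tbx20 overexpression, each gene was compared between the groups. Genes of both subunits were lower in tbx20-overexpressing hearts and none was called higher. Summed CPM of the large subunit genes was 1146, 971 and 726 in tbx20-overexpressing libraries, against 1271, 1816 and 1258 in control libraries. Summed CPM of the small subunit genes was 656, 615 and 435 in tbx20-overexpressing libraries, against 782, 1138 and 762 in control libraries. In neither subunit did the groups overlap. With edgeR's quasi-likelihood test, 38 of 73 genes (52.1%) were called lower, at an unadjusted p under 0.05 and a log2 fold change below -0.5, against 5.56% of all genes tested, and 0 of 73 were called higher, against 3.27% of all genes tested. The calls fell on 22 of 45 large subunit genes and 16 of 28 small subunit genes. The fold change was below 0 for 71 of 73 genes, with a median log2 fold change of -0.62 in the large subunit and -0.63 in the small subunit, beside 0.04 over all genes tested. In 41 of 73 genes, 25 of the large and 16 of the small subunit, every tbx20-overexpressing library lay below every control library, which held for 8.27% of all genes tested.

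These calls rested on unadjusted p-values. After Benjamini-Hochberg adjustment over all genes, edgeR left 0 of 73 members (and 0 genes in all) under 0.05, with 38 members under 0.05 before adjustment. DESeq2 left 1 member, mrps2, among 239 genes in all, and limma on log2(FPKM + 1) left 0 members and 0 genes in all. The smallest adjusted p of a member in edgeR was 0.227, again for mrps2. The number of calls also depended on single libraries, with 14 of 73 genes (19.2%) called lower without control replicate 2, against 4.09% of all genes tested in that fit, and 17 (23.3%) without tbx20-overexpressing replicate 3, against 4.36%.

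**Figure D1:**
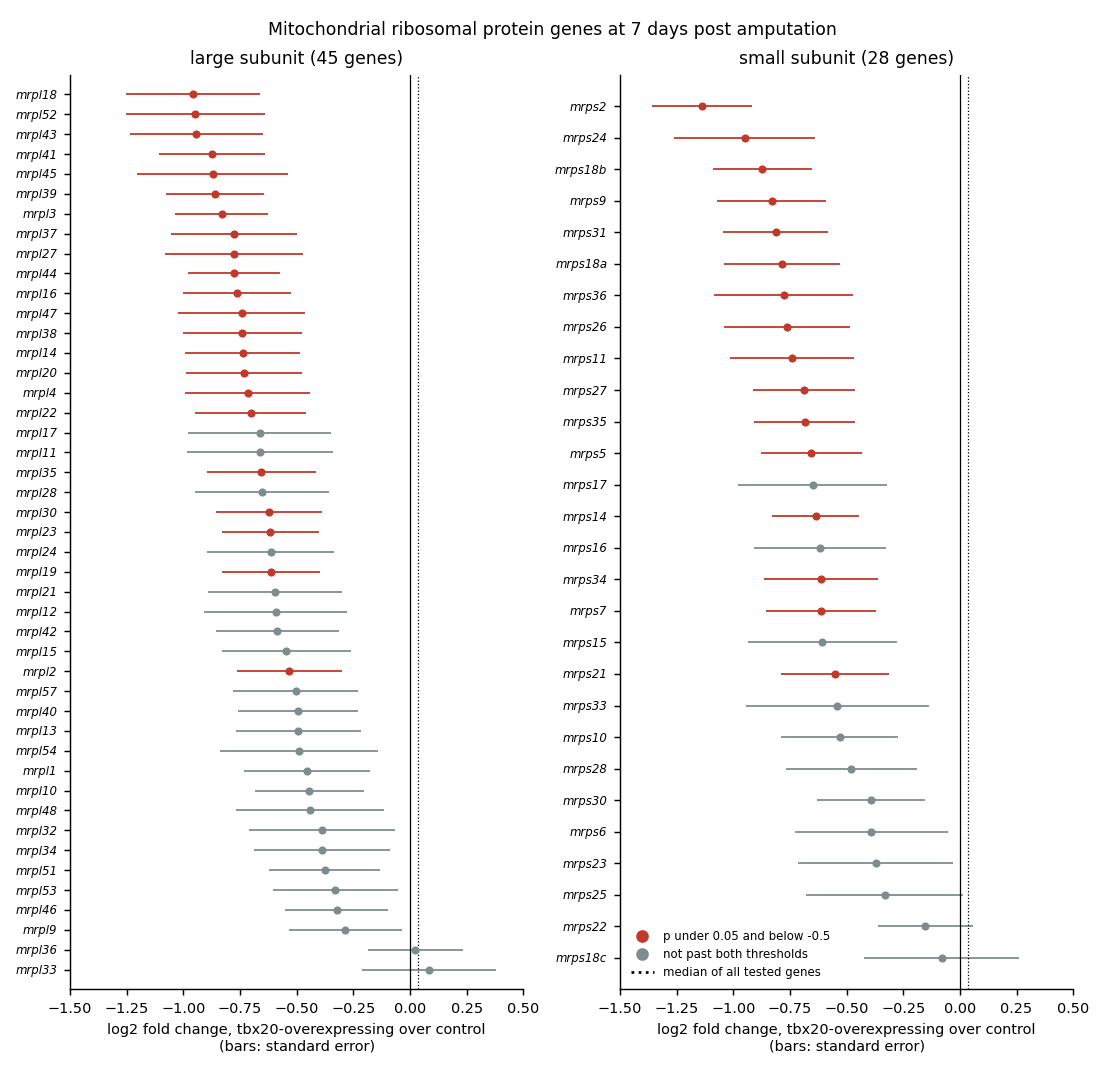
Log2 fold change (tbx20-overexpressing over control, horizontal axis) of each of the 45 large subunit genes (left) and 28 small subunit genes (right), with standard errors from edgeR. Red points mark the 22 large and 16 small subunit genes called lower, the dotted line is the median of all genes tested, and only mrpl33 and mrpl36 lie above 0.

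The strength of these changes depended on how libraries were scaled, since the TMM factors, which correct for composition, were 1.02, 1.08 and 1.31 in tbx20-overexpressing libraries, against 0.920, 0.748 and 1.01 in control libraries. Scaling by total counts instead moved the median log2 fold change of all genes by over 0.1, to 0.38, and turned the split of all calls from 872 lower and 513 higher to 257 lower and 1843 higher. The medians of the mitochondrial ribosomal protein genes then stood at -0.27 in both subunits, with 67 of 73 fold changes below 0 and 4 genes (5.48%) called lower (mrpl18, mrpl41, mrpl43 and mrps2), against 1.64% of all genes tested. Relative to the median of all genes, the medians stood at -0.65 for both subunits with total-count scaling. With TMM they stood at -0.65 for the large and -0.66 for the small subunit. A change of scaling shifts all genes by nearly the same amount, so this distance could hardly move. It was -0.45 and -0.43 for the large and small subunit without control replicate 2. Without tbx20-overexpressing replicate 1 it was -0.82 and -0.81.

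Among large subunit genes the 6 with the smallest p were mrpl3, mrpl39, mrpl44, mrpl41, mrpl18 and mrpl43. In each of them all tbx20-overexpressing libraries lay below all control libraries, and each was called in 6 of 6 fits that left out 1 library. Both traits follow largely from picking genes by p in the same libraries, and are no separate support. The gene mrpl3, whose product is the counterpart of a bacterial core protein close to the site of peptide bond formation, had 25.1, 23.7 and 20.1 CPM in tbx20-overexpressing replicates 1, 2 and 3, against 36.3, 49.1 and 37.0 CPM in control replicates 1, 2 and 3. Its log2 fold change was -0.83 ± 0.20 (SE; adjusted p = 0.284, edgeR). Its 3 tbx20-overexpressing libraries lay closer to each other than to any control library.

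mrpl39, a protein found in mitochondrial but not bacterial ribosomes, had 30.0, 19.4 and 21.4 CPM in tbx20-overexpressing libraries, against 42.2, 45.8 and 40.5 CPM in control libraries, a log2 fold change of -0.86 ± 0.22 (SE; adjusted p = 0.291, edgeR). mrpl44, which carries a domain related to ribonuclease III, had 11.4, 13.5 and 13.8 CPM in tbx20-overexpressing libraries, against 19.3, 22.8 and 24.3 CPM in control libraries, a log2 fold change of -0.78 ± 0.20 (SE; adjusted p = 0.310, edgeR). Unlike most members, mrpl44 was lowest in tbx20-overexpressing replicate 1, and it was separated from control in that pair as clearly as in the others. The other genes of this set, mrpl41 (-0.87), mrpl18 (-0.96) and mrpl43 (-0.94), had the lowest value of each in tbx20-overexpressing replicate 3 and the highest in control replicate 2. mrpl18 is the counterpart of the bacterial protein that binds the 5S ribosomal RNA.

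Among small subunit genes the 6 with the smallest p were mrps2, mrps18b, mrps31, mrps9, mrps14 and mrps35. They again had no overlap between the groups and were called in 6 of 6 fits that left out 1 library. As in the large subunit, this follows largely from the way they were picked. mrps2, the counterpart of bacterial ribosomal protein S2, had the lowest fold change of all 73 genes. It had 24.0, 23.7 and 17.8 CPM in tbx20-overexpressing libraries, against 40.7, 58.5 and 45.1 CPM in control libraries, a log2 fold change of -1.14 ± 0.22 (SE; adjusted p = 0.227, edgeR). It was also separated on the FPKM scale, at 19.2, 19.98 and 18.2 in tbx20-overexpressing libraries, against 29.3, 34.3 and 35.6 in control libraries. An exact permutation test on its CPM gave p = 0.1, the smallest that 3 against 3 libraries allow. In a fit that takes the replicate number as a block, mrps2 was the 1 member with an adjusted p under 0.05 (0.0479, edgeR). Over all genes tested, 84 had an adjusted p under 0.05 in that fit.

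mrps18b, encoding 1 of 3 paralogues related to bacterial S18, had 19.7, 17.1 and 17.8 CPM in tbx20-overexpressing libraries, against 28.6, 42.1 and 29.2 CPM in control libraries, a log2 fold change of -0.87 ± 0.22 (SE; adjusted p = 0.291, edgeR). The gene with the tightest replicates was mrps14, the counterpart of bacterial S14, at 10.9, 10.9 and 10.6 CPM in tbx20-overexpressing libraries, against 17.5, 16.7 and 16.3 CPM in control libraries. Its log2 fold change was -0.64 ± 0.19 (SE; adjusted p = 0.356, edgeR), and when single libraries were left out it stayed between -0.65 and -0.60. mrps9, mrps31 and mrps35 had log2 fold changes of -0.83, -0.81 and -0.69.

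**Figure D2:**
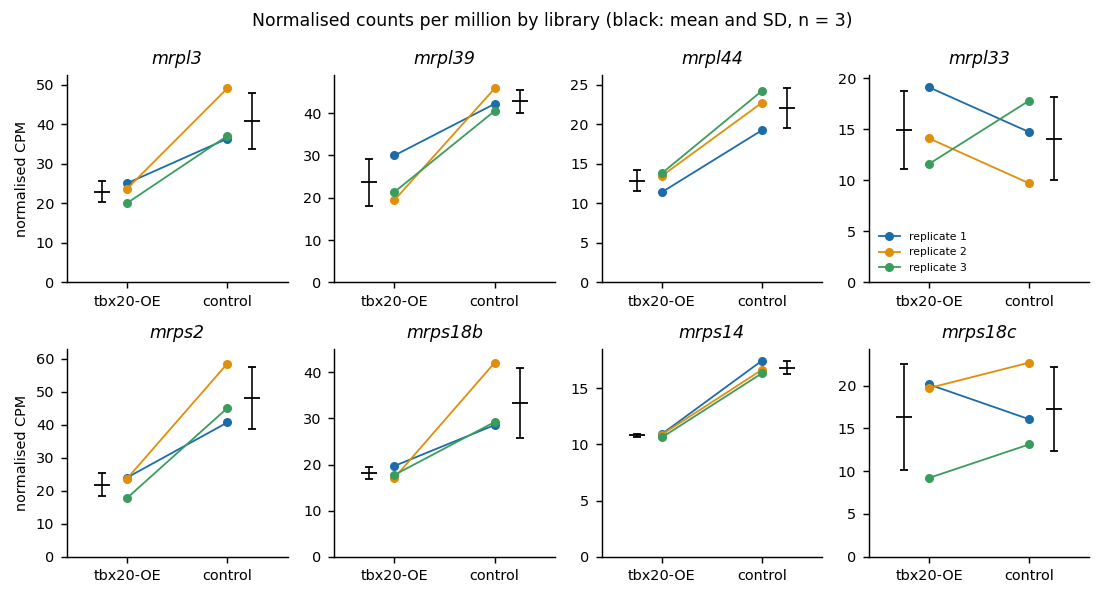
Normalised CPM (vertical axis, from 0) of 8 genes in each library, with tbx20-overexpressing (tbx20-OE) libraries on the left and control libraries on the right of each panel, lines joining libraries of the same replicate number, and the mean ± SD (n = 3) in black. The groups are separated for mrpl3, mrpl39, mrpl44, mrps2, mrps18b and mrps14, and overlap for mrpl33 and mrps18c.

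A few genes departed from the rest. mrpl33, the counterpart of the small bacterial protein L33, had 19.1, 14.1 and 11.6 CPM in tbx20-overexpressing libraries, against 14.7, 9.72 and 17.8 CPM in control libraries, a log2 fold change of 0.08 ± 0.29 (SE). mrpl36, the counterpart of L36, had 39.6, 41.8 and 27.5 CPM in tbx20-overexpressing libraries, against 34.3, 36.8 and 35.95 CPM in control libraries, a log2 fold change of 0.02 ± 0.21 (SE). Both overlapped between the groups, and the sign of each turned when tbx20-overexpressing replicate 1 was left out. In the small subunit, mrps18c, a second paralogue related to S18, had a log2 fold change of -0.08 ± 0.34 (SE), with 20.1, 19.7 and 9.21 CPM in tbx20-overexpressing libraries, against 16.1, 22.7 and 13.1 CPM in control libraries. The 3 genes related to S18 thus had different values, with -0.87 for mrps18b and -0.78 for mrps18a, which were called lower, and -0.08 for mrps18c, although the difference among them was not tested.

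mrps22, a mitochondrion-specific protein in which human mutations cause mitochondrial disease, had 14.2, 12.5 and 11.1 CPM in tbx20-overexpressing libraries, against 12.9, 15.2 and 13.9 CPM in control libraries, a log2 fold change of -0.15 ± 0.21 (SE). mrpl9 (-0.29) and mrps25 (-0.33) completed the genes with the highest fold changes of their subunits. The value of mrps25 rested on single libraries. It had 26.8, 48.4 and 17.6 CPM in tbx20-overexpressing libraries, against 37.1, 45.6 and 34.1 CPM in control libraries, and its log2 fold change was -0.82, and called lower, without tbx20-overexpressing replicate 2 but -0.05 without tbx20-overexpressing replicate 3. With total-count scaling the sign turned to positive for mrpl9, mrps22 and mrps18c. The standard errors of these genes lay between 0.21 and 0.35, and a missed threshold does not show that they were unaffected.

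Among the most abundant members, some were called lower and others not. mrps34, a mitochondrion-specific protein, had the highest mean FPKM of all members and was called lower (log2 fold change -0.61 ± 0.25, SE), with 64.9, 69.7 and 48.2 CPM in tbx20-overexpressing libraries, against 73.8, 124 and 82.3 CPM in control libraries. mrps36 was also called lower (-0.78 ± 0.31, SE), but the current gene name for this row is kgd4, a subunit of the 2-oxoglutarate dehydrogenase complex of the citric acid cycle, and its product is no longer counted as a ribosomal protein in mammals. Each of these calls held in 3 of 6 fits that left out 1 library. The most abundant large subunit gene, mrpl28, had 78.7, 75.7 and 43.3 CPM in tbx20-overexpressing libraries, against 90.4, 139 and 81.4 CPM in control libraries, which did not overlap, and its log2 fold change of -0.65 ± 0.30 (SE) missed the p threshold. mrpl32 and mrpl34, next in abundance, had log2 fold changes of -0.39 each and overlapped between the groups. At the low end, mrpl51 (-0.38) and mrpl46 (-0.32) overlapped too.

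mrpl12, which forms the flexible stalk that recruits translation factors, had 48.1, 29.1 and 19.8 CPM in tbx20-overexpressing libraries, against 50.3, 55.2 and 40.6 CPM in control libraries. It was not called (log2 fold change -0.59 ± 0.32, SE; unadjusted p = 0.0956, edgeR). Its tbx20-overexpressing replicate 1 lay within the control range. 3 further rows carried symbols of this family in capitals and were kept apart from the 73. MRPS12, the counterpart of bacterial S12 of the decoding centre, had 13.7, 9.56 and 10.2 CPM in tbx20-overexpressing libraries, against 18.1, 26.3 and 21.4 CPM in control libraries, and was called lower (-0.98 ± 0.24, SE; adjusted p = 0.286, edgeR). MRPL49 was called lower as well (-0.62 ± 0.22, SE). MRPL55 was not (-1.06 ± 0.46, SE), with 28.8 CPM in tbx20-overexpressing replicate 1, within the control range, and 9.36 and 9.09 CPM in replicates 2 and 3, and it was called lower with the replicate number as a block.

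Calls fell both among genes with the number of a bacterial protein and among the rest. The share to set beside the counts that follow is 5.56% of all genes tested called lower. By a division chosen after these values were seen, 13 of 28 large subunit genes numbered up to 36, as bacterial proteins are, were called lower, with a median log2 fold change of -0.62, and 9 of 17 with higher numbers, with a median of -0.74. In the small subunit the counts were 9 of 15 genes numbered up to 21, with a median of -0.64, and 7 of 13 with higher numbers, with a median of -0.61. Subunit names are not always subunit positions, since in mammalian mitochondrial ribosomes the products of mrps18a and mrps30 sit in the large subunit. With both counted there and mrps36 left out, 23 large and 14 small subunit genes were called lower.

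The 3 replicate pairs differed in how far they moved. The log2 ratio of CPM, tbx20-overexpressing over control, had a median over all 73 genes of -0.17 in pair 1, -0.95 in pair 2 and -0.81 in pair 3. In pair 1, 51 of 73 genes were lower, with ratios from -0.76 to 0.52. In pair 2, 70 of 73 genes were lower, and in pair 3 all 73 were. Both subunits shared this pattern, with medians of -0.15, -0.98 and -0.82 in the large subunit and -0.21, -0.91 and -0.74 in the small subunit. A total of 50 genes, 30 of the large and 20 of the small subunit, were lower in 3 of 3 pairs, against 18.8% of all genes tested. Pair 1, with the smallest difference in mitochondrial ribosomal protein genes, also had the highest tbx20 level in its tbx20-overexpressing library and tissue from 6 rather than 8 hearts, and the part of either in the result was not tested.

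With the replicate number as a block in the edgeR fit, 49 of 73 genes were called lower, 29 of the large and 20 of the small subunit, against 8.06% of all genes tested, and 0 were called higher, against 6.05% of all genes tested. All 38 genes called without the block were among the 49. The genes added included mrpl28 and mrpl12.

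**Figure D3:**
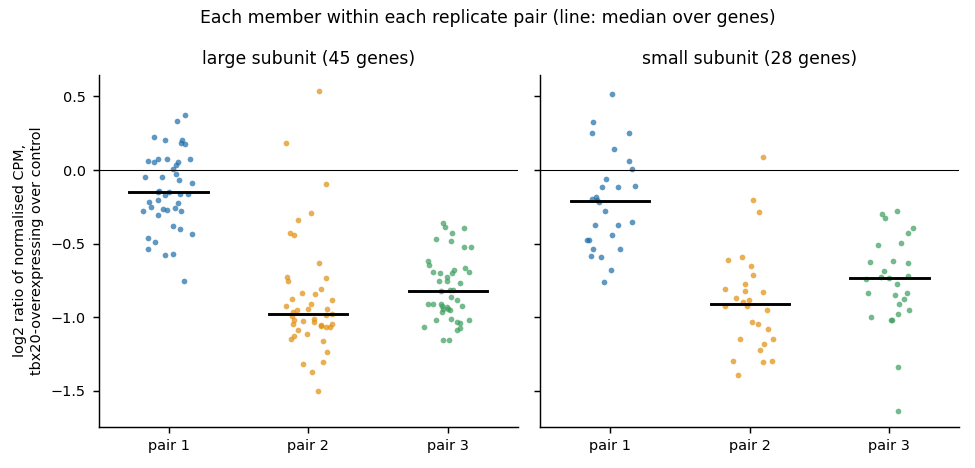
Log2 ratio of normalised CPM, tbx20-overexpressing over control (vertical axis), of each large subunit gene (left) and small subunit gene (right) within replicate pairs 1, 2 and 3, with a line at the median over genes. Points of pair 1 lie between -0.76 and 0.52, with medians of -0.15 and -0.21, while those of pairs 2 and 3 lie lower, with medians between -0.98 and -0.74.

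Other genes that act with the mitochondrial ribosome were examined from lists of known components. Of 7 other names listed for proteins of this ribosome, mrp63 was not a symbol in the table. The 6 found were dap3, ptcd3, chchd1, aurkaip1, gadd45gip1 and ict1. Their log2 fold changes lay between -0.60 and -0.39, with a median of -0.51, and 0 of 6 were called in edgeR, DESeq2 or limma, with 0 at p under 0.05. With the replicate block, 3 of them (dap3, ptcd3 and chchd1) were called lower. The 17 mitochondrial translation factors had a median of -0.50. Of these, 0 were called higher, against 3.27% of all genes tested, and 4 were called lower, against 5.56%. They were gfm1 (-0.56), the elongation factor that moves the ribosome along the message, mrrf (-0.54), which recycles ribosomes, mtfmt (-0.63), which formylates the initiator methionyl-tRNA, and lrpprc (-0.87), which stabilises mitochondrial messages. lrpprc had 127, 84.5 and 71.7 CPM in tbx20-overexpressing libraries, against 191, 170 and 156 CPM in control libraries. The elongation factor gene tufm had a log2 fold change of -0.69 and was not called. With the replicate block, 6 of the 17 were called lower, tufm and mtif2 being added, and 1, taco1, was called higher. Over all genes tested, 8.06% were called lower and 6.05% higher with the block.

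Genes listed for assembling the mitochondrial ribosome, charging its transfer RNAs, and transcribing the mitochondrial genome or processing its transcripts had medians nearer to 0. Of 20 assembly factors tested, 0 were called in either direction by edgeR, DESeq2 or limma, with 0 at p under 0.05, and the median log2 fold change was -0.27. With the replicate block 1 of them, mtg1, was called lower, against 8.06% of all genes tested. The 16 mitochondrial aminoacyl-tRNA synthetases and related genes, which charge the transfer RNAs, had a median of -0.25. Of these, 0 were called higher, against 3.27% of all genes tested, and 4 were called lower, against 5.56%. Examples were cars2 (-0.77) and fars2 (-0.999). Of 11 genes listed for mitochondrial transcription, transcript processing and DNA maintenance, 2 were called lower (tfb2m -0.75 and hsd17b10 -1.06), against the same 5.56%. Their list had a median of -0.29. With total-count scaling the median of all genes tested was 0.38, and the medians of these 3 lists were 0.08, 0.07 and 0.04. Those of the proteins with other names and of the translation factors were -0.15 and -0.14. That scaling shifts all genes by nearly the same amount, so the change of sign does not set the 3 lists apart.

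Genes for the respiratory chain, part of which the mitochondrial ribosome makes, were lower too. Over all genes tested, 5.56% were called lower and 3.27% higher. The 13 mitochondrially encoded messages had a median log2 fold change of -0.88, and 6 of 13 were called lower and 0 higher. Of 37 nuclear genes named for complex I of the respiratory chain that were tested, 35 were called lower and 0 higher, with a median of -0.88. With the replicate block the counts called lower were 13 of 13 and 37 of 37, against 8.06% of all genes tested. With total-count scaling the medians were -0.53 each, beside 0.38 over all genes tested. The proteins of the cytosolic ribosome, taken by name pattern, served as the other ribosome of the cell. Of 78 such genes, 0 were called in edgeR, with 2 at p under 0.05, while DESeq2 called 1 lower and edgeR with the replicate block 3, and their median log2 fold change was -0.33, which became 0.01 with total-count scaling. The summed CPM of the mitochondrial ribosomal protein genes per 100 CPM of cytosolic ribosomal protein genes was 3.88, 3.24 and 3.13 in tbx20-overexpressing libraries, against 4.15, 4.39 and 3.98 in control libraries, without overlap.

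**Figure D4:**
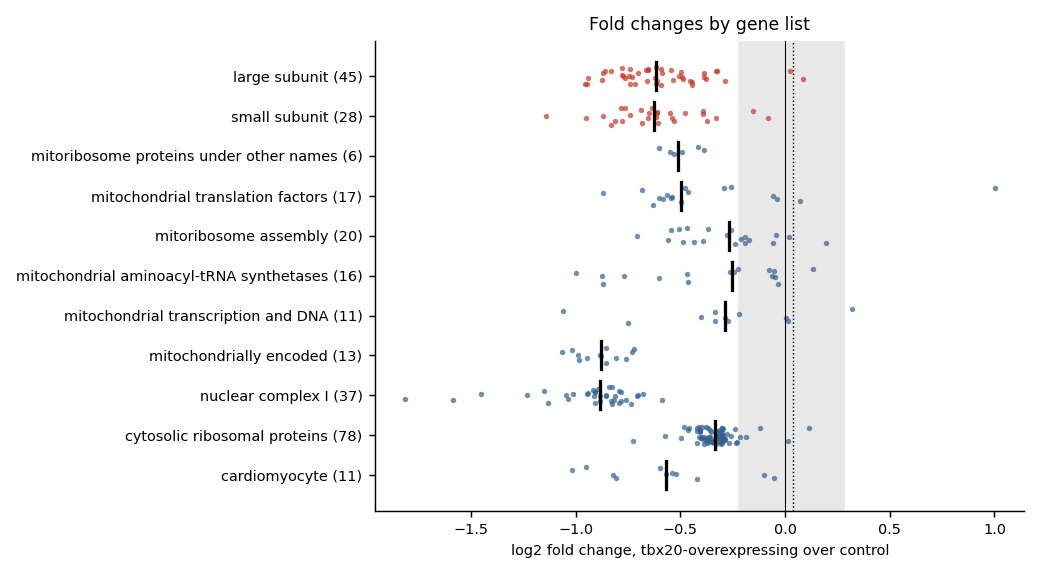
Log2 fold changes (tbx20-overexpressing over control, horizontal axis) of single genes in 11 lists (number of tested genes in parentheses), with a thick line at each list's median, a dotted line at the median of all genes tested and shading between their quartiles. The large and small subunit genes (red) have medians of -0.62 and -0.63, between those of nuclear complex I genes (-0.88) and cytosolic ribosomal protein genes (-0.33).

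Markers of several cell types differed between the groups beside these genes. The shares to set beside their counts are 5.56% of all genes tested called lower and 3.27% called higher. Of 11 cardiomyocyte markers in the table, 4 were called lower (cmlc1, actc1a, mybpc3 and tpm4a) and 0 higher, with a median log2 fold change of -0.57, and none was at 0 in any library. Their summed CPM was 31770 to 56650 in tbx20-overexpressing libraries, against 58390 to 92130 in control libraries, and their medians in pairs 1, 2 and 3 were -0.17, -0.81 and -0.82, close to those of the mitochondrial ribosomal protein genes. Endothelial and endocardial markers had 3 of 9 called lower (cdh5 -0.51, pecam1 -0.50 and egfl7 -0.67) and 0 higher, with a median log2 fold change of -0.27, which became 0.09 with total-count scaling. The list was mixed, with 6 of 9 fold changes below 0 and vwf (0.32), nfatc1 (0.105) and tie1 (0.002) above 0. Its summed CPM overlapped, at 1619 to 2220 in tbx20-overexpressing libraries, against 2079 to 2730 in control libraries. Epicardial and fibroblast markers had 2 of 11 called higher (tcf21 and wt1b), with a summed CPM of 13030 to 16270 in tbx20-overexpressing libraries, against 9201 to 11420 in control libraries. Macrophage markers had 1 of 9 called higher (spi1b), with a summed CPM of 838 to 1356 in tbx20-overexpressing libraries, against 784 to 1040 in control libraries. With the replicate block the calls were 7 lower for cardiomyocyte markers and 3 lower for endothelial and endocardial markers, against 8.06% of all genes tested. The block gave 4 higher each for the epicardial and the macrophage list, against 6.05% of all genes tested. No marker of these lists was at 0. With total-count scaling the cardiomyocyte median was -0.20, with 2 of 11 called lower. The epicardial and fibroblast median was 0.85, with 9 of 11 called higher, and the macrophage median 0.90, with 5 of 9. Over all genes that scaling called 257 lower and 1843 higher, with a median of 0.38. The part of these cell types in the result was not tested.

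Set against the cardiomyocyte markers, the mitochondrial ribosomal protein genes overlapped between the groups. Within every replicate pair, though, their summed CPM per marker CPM was higher in the tbx20-overexpressing library, by little in pair 1. The medians over genes did not follow this. In pairs 1, 2 and 3 they were -0.17, -0.95 and -0.81 for the mitochondrial ribosomal protein genes. For the cardiomyocyte markers they were -0.17, -0.81 and -0.82. Per 100 CPM of cardiomyocyte markers the mitochondrial ribosomal protein genes summed to 3.18, 3.64 and 3.65 CPM in tbx20-overexpressing libraries, against 3.16, 3.21 and 3.46 CPM in control libraries. Nuclear complex I genes summed to 8.32, 9.08 and 9.34 CPM per 100 CPM of the same markers in tbx20-overexpressing libraries, against 10.3, 10.4 and 10.4 CPM in control libraries, and did not overlap. Per 100 CPM of complex I genes, the mitochondrial ribosomal protein genes summed to 38.2, 40.1 and 39.1 CPM in tbx20-overexpressing libraries, against 30.6, 30.9 and 33.3 CPM in control libraries, so they were higher in proportion to complex I in every tbx20-overexpressing library. These ratios are sums over lists and carry no test. Some of the cardiomyocyte markers were themselves called lower, and a ratio to them is not a level per cardiomyocyte.

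**Figure D5:**
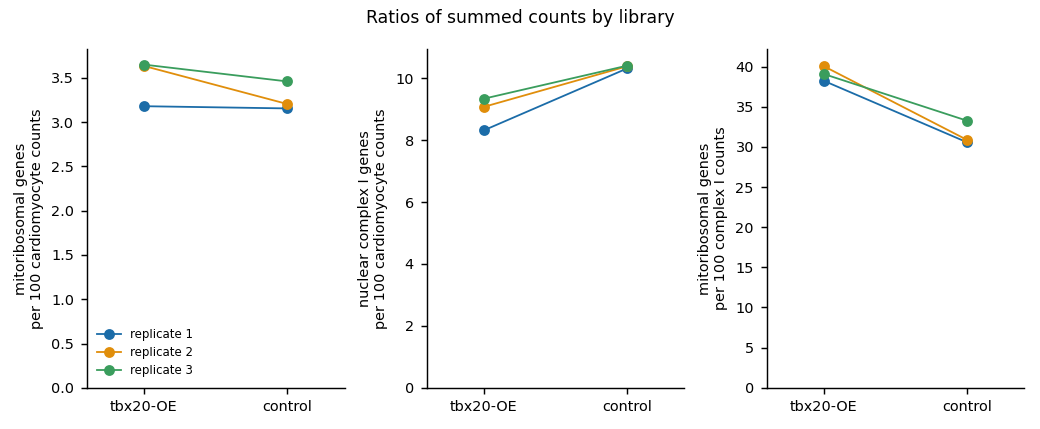
Ratios of summed CPM in each library (vertical axes, from 0), tbx20-overexpressing (tbx20-OE) on the left and control on the right of each panel, with lines joining libraries of the same replicate number. Mitochondrial ribosomal protein genes per 100 CPM of cardiomyocyte markers overlap but are higher in the tbx20-overexpressing library of each pair (left). Complex I genes per 100 CPM of the same markers are lower in tbx20-overexpressing libraries (middle). Mitochondrial ribosomal protein genes per 100 CPM of complex I genes are higher there (right).

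The mitochondrial ribosomal protein genes are short, with a median exonic length of 1065 bases, against 2477 bases over the genes tested. Of the 2084 genes tested with a length between the quartiles of the members (810 to 1409 bases), 7.49% were called lower. Among all genes tested 5.56% were. The median log2 fold change of the 2084 genes was -0.05. The gene table gives no positions or sequences, and none are reported here.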

How the data were processed

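RNA from pooled ventricular apices (3 libraries per group) was sequenced on an Illumina HiSeq after poly(A) selection. The submitters' processing notes name Trimmomatic 0.30, HISAT2 2.0.1, DESeq and the GRCz10 build. The counting tool and the use of strand are not given in the sources used here, so reads shared with overlapping or near-identical genes could not be separated. The authors deposited raw counts per gene and FPKM values, and all 190206 FPKM values equal those recomputed from count, exonic length and library total (tolerance 0.0051).

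The deposited counts were tested over all genes in R 4.3.3 with edgeR 4.0.16 (filterByExpr, TMM, two-sided quasi-likelihood F test on the group). A call needed a p under 0.05 before adjustment and a log2 fold change of a size over 0.5. The results of the study give thresholds of this size without saying whether the p was adjusted, while its methods name an adjusted p, so both are given, and Benjamini-Hochberg adjusted values cover all 15686 genes tested. CPM values are TMM-normalised. The standard error is the log2 fold change divided by the square root of F. Exact permutation tests of single genes used log2 CPM. The fits were checked on simulated data with 200 changed genes, as many higher as lower, and unpaired libraries. That check does not cover the replicate pairing or the uneven scaling factors of these data.

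The pairing by replicate number was inferred from these data. Deviations from the group means correlated at 0.474, 0.419 and 0.511 between libraries of the same number and at -0.362 to -0.138 between unlike numbers. These are correlations across genes, which are not independent. Deviations within a group sum to 0, so the negative values are tied to the positive ones and are no separate support. The main fit has no block. No 2 libraries of a group were duplicates (chi-square per degree of freedom 44.9 to 79.4). P-values measure the spread between pools.

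The genes named were, in each subunit, the 6 with the smallest p, the 3 with the highest fold change, the 3 with the highest and the 2 with the lowest mean FPKM, with mrpl12, mrps12 and rows spelled in capitals. Others named were chosen after their values were seen. The members and lists were chosen with earlier results of these data known. The cytosolic and complex I lists follow name patterns and hold a few related genes that are not subunits. Of the 73 members, 71 had a symbol in the gene name table, 70 of them the same. Alternatives were DESeq2 1.42.0, limma 3.58.1 on log2(FPKM + 1), RLE factors, total-count scaling, TMM without mitochondrially encoded genes, no filter, at least 10 counts in every library, a block for the replicate number, and leaving out single libraries in turn. Counting subunits by their position in the ribosome was added after seeing the data.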

Additional observations from a re-analysis of the deposited data

How the results depend on the processing

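No alternative called a mitochondrial ribosomal protein gene higher. Of 136 alternative values of the main counts and medians, 117 stayed within 1.5 times the main count or, for medians, within 1 SD of the pair medians (0.438 in the large and 0.364 in the small subunit), 19 moved and 0 reversed. That SD is wide, and it covers the shift in medians with total-count scaling. Only the medians could reverse, since a count has no sign. The counts of members called higher were 0 throughout and were tallied as unmoved, so the tally is a weak measure of stability. With total-count scaling, 3 large and 1 small subunit genes were called lower, against 257 lower and 1843 higher over all genes. The subunit medians were then -0.27 for both. With limma on log2(FPKM + 1), which is scaled by total counts, 4 large and 2 small subunit genes were called lower, the small subunit median was -0.26, and 262 genes were called lower and 1488 higher in all. Without a filter 816 genes were called higher, and with the replicate block 949. The block changed no direction and lost no call of a member. With each library left out, 7 to 29 large and 7 to 19 small subunit genes were called lower, against 4.09% to 6.32% of all genes tested. The medians were -0.80 to -0.43 in the large and -0.79 to -0.41 in the small subunit. The fewest calls came without control replicate 2 (7 and 7) and without tbx20-overexpressing replicate 3 (8 and 9). Requiring an adjusted p under 0.05 left 0 calls of members in edgeR without the block and 1, mrps2, with the block or in DESeq2. Over all genes it left 84 with the block and 239 in DESeq2.

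Of the 38 members called lower, 0 had a fold change above 0 with total-count scaling, limma, DESeq2, the replicate block or any library left out. This follows largely from the way the 38 were picked, since a call already needed a fold change well below 0. Total-count scaling shifted all genes by nearly the same amount, which was smaller than the fold change a call needed. The other fits used the same libraries, so this count is no separate support. Among the named genes, signs turned for some that were not called. With total-count scaling and limma the log2 fold change was 0.0015 and 0.0079 for mrpl46, 0.045 and 0.033 for mrpl9, 0.19 and 0.17 for mrps22, and 0.26 and 0.21 for mrps18c. With single libraries left out it ranged from -0.13 to 0.29 for mrpl33, from -0.094 to 0.18 for mrpl36 and from -0.26 to 0.21 for mrps18c.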
